A study of Mus musculus with 4 samples.

Results

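Glycolysis and hypoxia genes were examined as a set of 36 genes on 4 Affymetrix Mouse Genome 430 2.0 arrays of mouse embryonic fibroblasts, cells grown out of mouse embryos. The genes were taken from a list of glycolytic enzymes, transporters of glucose and lactate, and genes of the hypoxia-inducible factor (HIF) pathway, and each was read from its brightest probe set by the mean over the arrays. Of the 36 genes, 33 had a probe set naming them alone and 32 passed the filter on low signal, out of 18193 genes with a probe set and 11546 that passed. Gpi1 and Eno1 had no probe set named for them in the annotation used here, and Gapdh had only control probe sets to itself. Car9, a carbonic anhydrase and classical HIF target, was measured but did not pass. The arrays were Wip1+/+ unirradiated (0 h), Wip1+/+ at 4 h after 5 Gy of gamma radiation, Wip1-/- unirradiated (0 h) and Wip1-/- at 4 h after 5 Gy. Wip1 is a phosphatase, the product of Ppm1d, that switches off p53 and the kinases that signal DNA damage. The sources used here do not give the number of embryos or cultures behind each RNA, the passage or the oxygen tension, nor which part of Wip1 was deleted. Each group held 1 array, so a value has no error between cultures and no p-value was computed. No array held unirradiated cells at 4 h, so radiation and time in culture cannot be told apart. Signals of a gene are given below in a fixed order of arrays: Wip1+/+ 0 h, Wip1+/+ 4 h, Wip1-/- 0 h and Wip1-/- 4 h.

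Glycolysis splits glucose into pyruvate through a chain of enzymes, most of which exist as isozymes from separate genes. HIF is a transcription factor whose alpha subunits (Hif1a, Epas1) are marked for destruction in the presence of oxygen by prolyl hydroxylases (Egln1, Egln3) and the Vhl ubiquitin ligase. When oxygen is short the stabilised factor raises transcription of glycolytic enzymes, glucose transporters and genes for blood vessel growth. HIF alpha is controlled mainly through protein stability, which an RNA array does not measure. Irradiated fibroblasts activate p53, which is known to act on some of the genes of glucose metabolism.

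The cells had the RNA of fibroblasts: 11 of 11 fibroblast markers were above the signal floor on every array. Ppm1d itself read no lower under the Wip1-/- label by its brighter probe set, which gave 375, 364, 504 and 482. The other read 317, 463, 219 and 561. The position of these probes against the deletion is unknown here, so their signal does not check the labels. The unirradiated array labelled Wip1-/- stood apart in its 18 spike-in hybridization controls. The SD of their log2 ratios was 0.44 to 0.47 in the pairs of arrays that include it and 0.07 to 0.10 in the other pairs. Results that rest on this array are therefore given with the comparison of irradiated genotypes, or the irradiation comparison of Wip1+/+ cells, beside them. Macrophage markers had a summed signal of 9808, 9960, 2623 and 2430 on the 4 arrays in order. Fewer macrophages and less RNA per cell cannot be told apart in such bulk samples. Of these 15 markers 12 or 13 were above the floor on each array, and Lyz2 and Ctss were above it on all 4. The part of these markers in the genotype ratios below was not tested.

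HIF binds DNA at a short core, ACGTG or GCGTG. Promoters with and without it are shown for Bnip3, Pgk1, Aldoc and Gbe1, genes on which the results turn. By the brightest probe sets, Bnip3 was lowest on the unirradiated array labelled Wip1-/-, and Pgk1 and Aldoc were highest there. Gbe1 had the widest ratios of all. Each sequence is the 250 bases before the most upstream start of the gene in RefSeq (GRCm38.p6), on the gene's own strand from 5′ to 3′, and capitals mark either core on either strand. They lie at chr7:138909507-138909756 on the minus strand (Bnip3), and on the plus strand at chrX:106186850-106187099 (Pgk1), chr11:78322823-78323072 (Aldoc) and chr16:70313699-70313948 (Gbe1).
Bnip3: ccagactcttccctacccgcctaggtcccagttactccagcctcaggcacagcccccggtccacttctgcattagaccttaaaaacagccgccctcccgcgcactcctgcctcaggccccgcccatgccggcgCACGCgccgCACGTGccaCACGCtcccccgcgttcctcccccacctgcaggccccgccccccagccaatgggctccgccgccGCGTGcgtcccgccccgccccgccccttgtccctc
Pgk1: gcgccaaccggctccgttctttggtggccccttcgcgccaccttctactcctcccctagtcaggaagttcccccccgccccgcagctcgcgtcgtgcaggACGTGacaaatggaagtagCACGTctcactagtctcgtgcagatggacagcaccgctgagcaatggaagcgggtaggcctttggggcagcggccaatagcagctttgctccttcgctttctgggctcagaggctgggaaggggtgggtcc
Aldoc: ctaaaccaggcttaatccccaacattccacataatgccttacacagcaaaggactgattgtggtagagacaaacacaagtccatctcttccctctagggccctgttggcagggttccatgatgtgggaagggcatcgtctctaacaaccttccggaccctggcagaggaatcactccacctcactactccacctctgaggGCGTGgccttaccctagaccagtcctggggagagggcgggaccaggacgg
Gbe1: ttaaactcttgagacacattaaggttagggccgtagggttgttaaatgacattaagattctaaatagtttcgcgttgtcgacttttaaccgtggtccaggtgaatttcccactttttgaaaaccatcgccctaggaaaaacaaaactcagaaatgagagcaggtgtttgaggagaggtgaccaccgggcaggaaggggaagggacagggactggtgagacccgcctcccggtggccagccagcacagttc
The Bnip3 promoter held 5 matches in the window that also takes in the 50 bases after the start, where CACGTG counts as a pair because it reads ACGTG on both strands. Pgk1 had 2 matches, Aldoc 3 (of which 1 lies before the start) and Gbe1 0. Promoters were matched for 34 of the 36 genes, all but Epas1 and Ndrg1. In this 300-base window ACGTG was found in 18 of the 34 (52.9%) and in 19.6% of 27025 promoters of all genes. GCGTG was found in 17 of the 34 (50%) and in 32.5% of all, and at least 1 of the 2 in 25 of 34 (73.5%) and in 43.8% of all. Such short motifs depend on base composition, and a match is not a bound site. The list was also picked to hold known HIF pathway genes, so these shares are not an independent result about it. Genes with and without a match were found on both sides of the ratios described below.

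In Wip1+/+ cells 29 of the 32 genes differed by less than 1.5-fold before and after irradiation, as did 89.3% of all genes. The median log2 ratio of the 32 was 0.074 (0.013 over all genes). Signal was above the unirradiated value in 20 genes and below it in 12, while 52.3% of all genes had a ratio above 1. Gbe1, the glycogen branching enzyme, was the 1 gene at least 2-fold higher, and 0 were at least 2-fold lower, against 1.58% and 1.5% of all genes. Probe sets of the same gene were used as a measure of technical error: their log2 ratios had an SD of 0.37, and 0.18 among probe sets with a mean of at least 500.

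Irradiated cells of the 2 genotype labels were compared without the array that stood apart. Of the 32 genes 30 were within 1.5-fold, as were 85.4% of all genes, and the median log2 ratio of Wip1-/- over Wip1+/+ was 0.082 (-0.0048 over all genes). A ratio above 1 was found in 20 of 32 genes (49.1% of all genes), and 0 genes were at least 2-fold higher or lower, against 2.35% and 2.94% of all genes. Egln3 was 1.51-fold higher and Gbe1 1.63-fold lower, the 2 genes past 1.5-fold. The SD between probe sets was 0.41.

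Comparisons with the unirradiated array labelled Wip1-/- were wider. Against unirradiated Wip1+/+ cells, 3 genes were at least 2-fold higher (Gbe1, Aldoc and Tpi1) and 2 at least 2-fold lower (Ankrd37 and Hif1a), against 5.14% and 6.83% of all genes. With arrays scaled to a common median of bright probe sets, 3 were higher and 1 was lower. The ratio was above 1 in 21 of 32 genes (53.5% of all), with a median of 0.24 (0.053 over all genes, and 0.10 over the 926 genes with a mean of at least 5000). After irradiation of cells labelled Wip1-/-, those at least 2-fold higher numbered 4 (Ankrd37, Pdk1, Epas1 and Hif1a) and 1 at least 2-fold lower (Gbe1), against 5.7% and 4.62% of all genes. Here 11 of 32 genes had a ratio above 1 (47.4% of all), with a median of -0.16. Both comparisons share that array, and with the mean of both Wip1+/+ arrays in its place as the base, 0 genes were at least 2-fold higher or lower and the median turned to 0.071. The SD between probe sets was 0.65 for the unirradiated genotypes and 0.62 for irradiation of cells labelled Wip1-/-.

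**Figure D1:**
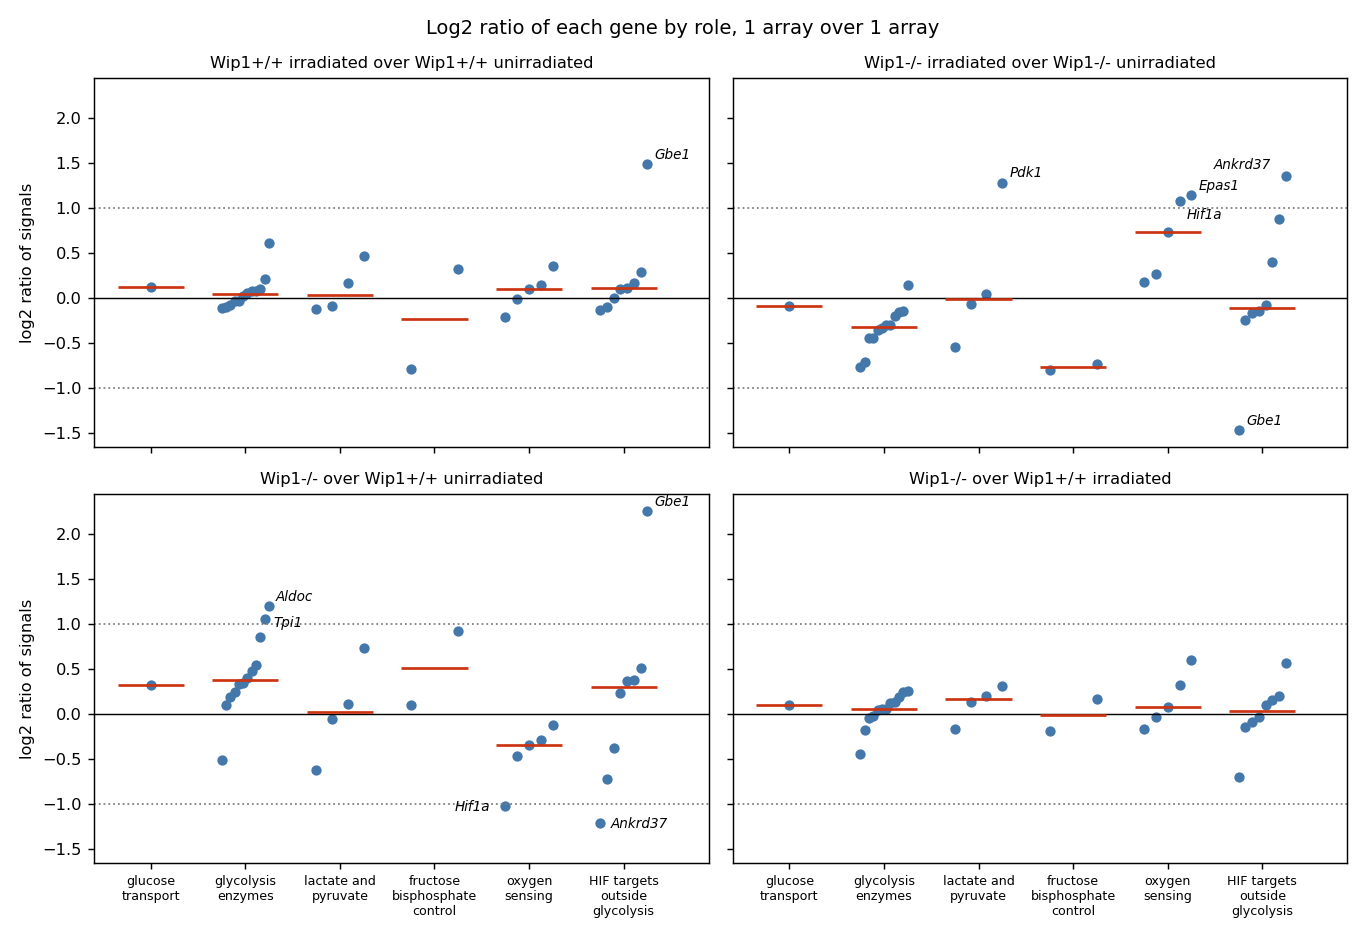
Log2 ratio of signals for 32 genes in the 4 comparisons, each 1 array over 1 array, by role of the gene (x axis); points are genes, red bars are medians and dotted lines mark 2-fold. The spread is narrow in the upper left and lower right panels, which do not use the unirradiated Wip1-/- array, apart from Gbe1 at 1.48 in Wip1+/+ cells.

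By the brightest probe set of each of the 32 genes, the unirradiated array labelled Wip1-/- lay outside the range of the other 3 arrays. It was above them in 21 genes and below them in 11, against 39.8% and 34.3% of all genes. The other 3 arrays lay within 1.5-fold of each other in 26 of the 32 genes (75.4% of all genes), and the median of highest over lowest among these 3 was 1.14-fold, against 1.24-fold over all genes. By the brightest probe sets it was above the others in 11 of 12 glycolytic enzymes and below them in the 5 oxygen-sensing genes. It was above in 2 and below in 2 of the lactate and pyruvate genes, and above in 5 and below in 3 of the other HIF targets. The other probe sets did not all place it outside the range. Of 12 other probe sets of glycolytic enzymes it was above in 8, below in 3 and within the range in 1. Of 5 other probe sets of oxygen-sensing genes it was below in 3 and within the range in 2, as for 5 of lactate and pyruvate genes. Of 7 of the other HIF targets it was above in 2, below in 3 and within the range in 2. For Slc2a1 it was above in 1 and below in 1, and for Pfkfb3 within the range in 1. No difference between roles was tested. Fibroblast markers went both ways on that array, which was above the others in 5 of the 11, below them in 5 and within their range in 1. Their summed signals were 226301, 213235, 307424 and 233437, sums to which bright genes such as Vim, Fn1 and Col1a1 contribute most, while Lum was 3.53-fold and S100a4 1.89-fold lower there than in unirradiated Wip1+/+ cells. The part of these markers in the result was not tested.

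**Figure D2:**
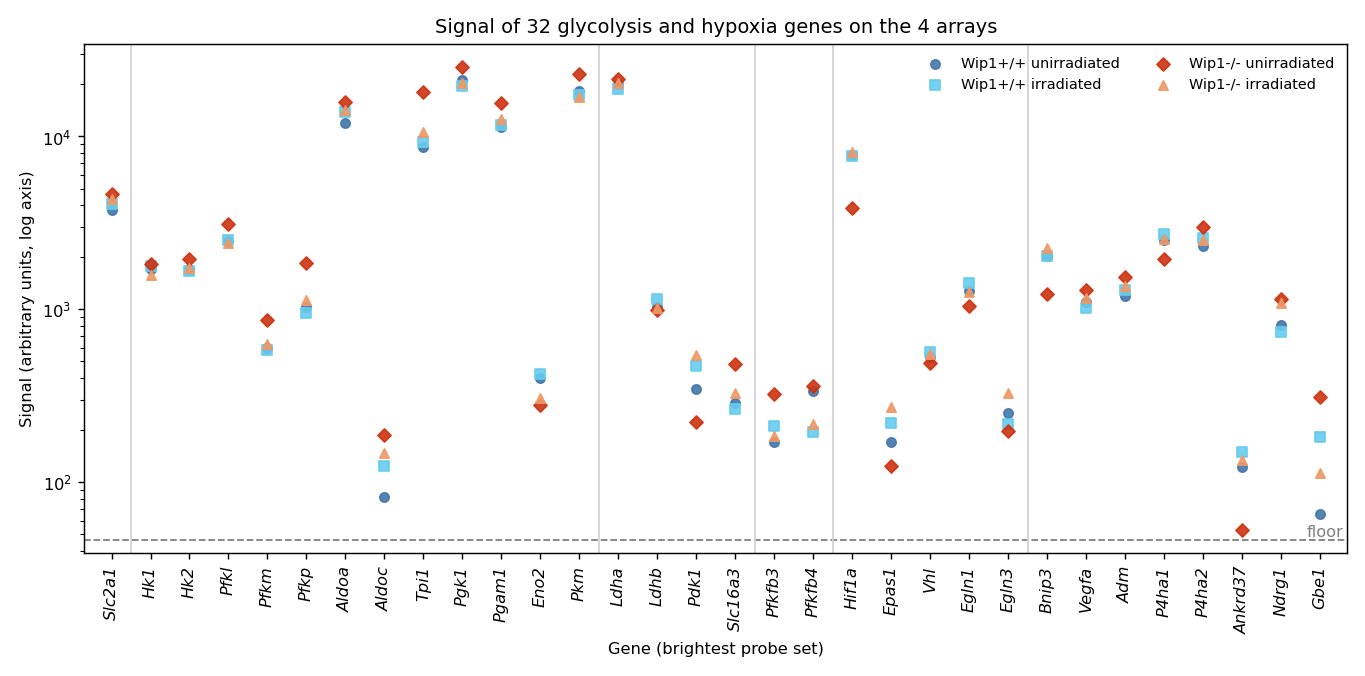
Signal (arbitrary units, log axis) of 32 genes on the 4 arrays, 1 point per array; grey lines separate the roles in the order glucose transport, glycolysis enzymes, lactate and pyruvate, fructose bisphosphate control, oxygen sensing and other HIF targets. The red diamonds of the unirradiated Wip1-/- array lie above the other 3 symbols for 21 genes and below them for 11; signals of different genes come from different probes and are not to be compared.

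Glucose enters through Slc2a1 (Glut1), which read 3754, 4079, 4669 and 4362. One other probe set of Slc2a1 read 3053, 3129, 2850 and 3636.5, with the unirradiated Wip1-/- array lowest. Another read 2204, 2115, 3374 and 2095, with that array highest. Of the hexokinases, which trap glucose as its phosphate, Hk2 read 1719, 1676, 1948 and 1738. Hk1 read 1701, 1788, 1818 and 1577, and its other probe set 1416, 1355, 871 and 1175, with the unirradiated Wip1-/- array lowest. The 2 probe sets of Hk1 thus put that array at opposite ends.

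Phosphofructokinase commits sugar to glycolysis and has liver, muscle and platelet forms. Pfkp, the platelet form, read 1030, 958, 1852 and 1128. It was 1.80-fold higher on the unirradiated array labelled Wip1-/- and 1.18-fold higher after irradiation. Its second probe set, at 595, 521, 661 and 547, was 1.11-fold and 1.05-fold higher. Pfkm, the muscle form, read 596, 580, 867 and 633, and Pfkl, the liver form, 2474, 2514, 3112 and 2431. A second probe set of Pfkl went the other way, at 1361, 1362, 1124 and 1509. By the brightest probe sets the 3 forms were alike in Wip1+/+ cells, where irradiation left each within 1.08-fold of its start.

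Aldolase cleaves the sugar into 2 triose phosphates. Aldoa, its form in muscle and most tissues, read 11917, 13797, 15730 and 14182. Aldoc, the brain form, was dim, at 81.8, 124, 187 and 148. It was 1.52-fold higher after irradiation in Wip1+/+ cells and 1.26-fold lower in cells labelled Wip1-/-, and 2.29-fold higher in the unirradiated genotype comparison. Triose phosphate isomerase, Tpi1, read 8708, 9310, 17980 and 10547, which is 2.06-fold higher on the unirradiated array labelled Wip1-/-. Its probe set is one that can cross-hybridize. Of its other 2 probe sets, one read 9726, 10063, 10616 and 10498, a log2 ratio of 0.13, and the other 5803, 6504, 10339 and 6755.

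The enzymes after the triose stage were bright on all arrays. Pgk1, which makes the first ATP of glycolysis, read 21354, 19699, 25186 and 20340. Pgam1, phosphoglycerate mutase, read 11286, 11673, 15655 and 12693, and Pkm, pyruvate kinase, 18313, 17296, 23119 and 16928. By these probe sets all 3 were highest on the unirradiated array labelled Wip1-/-, by 1.18-, 1.39- and 1.26-fold over unirradiated Wip1+/+ cells. They lay within 1.09-fold of Wip1+/+ after irradiation. Other probe sets of Pgk1 disagreed on the unirradiated genotypes, with one 1.83-fold higher and another 3.84-fold lower in cells labelled Wip1-/-. Eno2, the neuronal enolase, was the exception among the 12 enzymes. It read 398 and 420 in Wip1+/+ cells and 278 and 307 in cells labelled Wip1-/-, so that both Wip1-/- arrays lay below both Wip1+/+ arrays.

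Gapdh, the dehydrogenase of the middle of the pathway, could be read from the array's RNA quality controls, which probe its 5′ end, middle and 3′ end. The 5′ probe set read 46882, 42651, 51291 and 46316. The 3′ probe set read 32853, 30941, 50305 and 33099. The 3′ over 5′ ratio was thus 0.701, 0.725 and 0.715 on the other arrays and 0.981 on the unirradiated array labelled Wip1-/-, while that of Actb was 1.21 to 1.25 on the 4 arrays. For Gapdh the genotype difference before irradiation therefore depended on the position of the probes, from a log2 ratio of 0.13 at the 5′ end to 0.61 at the 3′ end. After irradiation it was 0.12 and 0.10. The part of this 3′ shift in the ratios of the other genes was not tested.

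Lactate dehydrogenase and its neighbours handle the pyruvate. Ldha, the form that favours lactate and a HIF target, read 20023, 18776, 21488 and 20471. Ldhb, the heart form, read 1030, 1151, 990 and 1021. These values of Ldha lay within 1.09-fold in each of the 4 comparisons and those of Ldhb within 1.13-fold. Other probe sets of Ldhb varied more. One was 1.40-fold higher after irradiation of Wip1+/+ cells, and another 1.44-fold higher after irradiation of cells labelled Wip1-/-. Slc16a3 (Mct4), the lactate exporter, read 289, 265, 480 and 327, and was 1.66-fold higher before irradiation and 1.23-fold higher after in cells labelled Wip1-/-.

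Pdk1, a kinase of pyruvate dehydrogenase, read 344 and 472 in Wip1+/+ cells and 223 and 541 in cells labelled Wip1-/-. It was 1.37-fold and 2.43-fold higher after irradiation. The size rests on 1 probe set: the others that passed the filter read 261, 287, 291 and 320, and 135, 170, 180 and 186. By these the log2 ratio in cells labelled Wip1-/- was 0.14 and 0.04. All 3 probe sets were higher after irradiation in both genotypes, but by differing amounts.

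Fructose 2,6-bisphosphate, the activator of phosphofructokinase, is made and removed by the Pfkfb enzymes. Pfkfb4 was lower after irradiation in both genotypes. It read 338 and then 194 in Wip1+/+ cells, and 362 and then 217 in cells labelled Wip1-/-, which is 1.74-fold and 1.67-fold lower. Both unirradiated arrays thus lay above both irradiated ones, on a single probe set. Pfkfb3, the form of proliferating cells, read 170, 212, 323 and 185, and was 1.24-fold higher after irradiation in Wip1+/+ cells and 1.75-fold lower in cells labelled Wip1-/-. Its dimmer probe set read 97.6, 89.4, 126 and 134.

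By their brightest probe sets, the 5 genes of oxygen sensing read lowest on the unirradiated array labelled Wip1-/-; second probe sets of Egln1 and Egln3 read lowest on the irradiated one. Hif1a read 7796 and 7699 in Wip1+/+ cells, and 3836 and 8105 in cells labelled Wip1-/-. On 3 arrays the signal was within 1.05-fold, and on the fourth it was 2.03-fold lower than in unirradiated Wip1+/+ cells. Its other probe sets were lower there by less, at 1318, 1328, 965 and 1139, and at 829, 865, 639 and 687. Epas1, which encodes the second HIF alpha subunit, read 171 and 219 in Wip1+/+ cells and 124 and 272 in cells labelled Wip1-/-. It was 1.28-fold and 2.20-fold higher after irradiation.

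Vhl, which marks HIF alpha for removal, read 533, 567, 489 and 552, and its second probe set 266, 266, 251 and 257. Egln1, the main prolyl hydroxylase, read 1279, 1412, 1046 and 1253, but 722, 533, 586 and 336 by its second probe set, which was lower after irradiation in both genotypes. Egln3, a hydroxylase that HIF itself induces, read 253, 218, 198 and 328. The 2 probe sets of Egln3 differed in direction between irradiated genotypes, since the other read 120, 66.5, 65.6 and 57.5.

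HIF targets outside glycolysis went both ways. On the unirradiated array labelled Wip1-/- 5 of the 8 were above unirradiated Wip1+/+ cells and 3 below. Bnip3, a mitophagy receptor, read 2037, 2037, 1231 and 2263, the unirradiated Wip1-/- array being 1.65-fold below unirradiated Wip1+/+ cells. Ankrd37, an ankyrin repeat protein, read 123, 149, 52.8 and 135, close to the floor of 46.5 on that array. P4ha1, a collagen prolyl hydroxylase, read 2528, 2733, 1942 and 2553, while P4ha2, its paralog, read 2316, 2591, 3008 and 2523. These 2 hydroxylase genes lay on opposite sides on the unirradiated array labelled Wip1-/- and within 1.07-fold and 1.03-fold of Wip1+/+ after irradiation.

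Vegfa, the growth factor of blood vessels, read 1095, 1021, 1288 and 1166. Its second probe set read 773, 440, 841 and 739. Adm, the vasodilator adrenomedullin, read 1201, 1287, 1538 and 1370. Its second probe set read 1208, 1536, 684 and 1351, so the unirradiated array labelled Wip1-/- was highest by the first and lowest by the second. Ndrg1, a stress-responsive gene, read 810 and 736 in Wip1+/+ cells and 1146 and 1086 in cells labelled Wip1-/-, both above both Wip1+/+ arrays. This was by its brightest probe set, and its other probe sets did not all show it.

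Gbe1 had the widest ratios. It read 65.6 and 184 in Wip1+/+ cells, and 312 and 113 in cells labelled Wip1-/-. It was 2.80-fold higher after irradiation in the first and 2.77-fold lower in the second, and 4.76-fold higher in the unirradiated genotype comparison. The 4 values paired neither by genotype label nor by time, and Gbe1 had 1 probe set. Car9 was at or near the floor, at 45.1, 63.7, 8.0 and 16.6, so the 1 value above the floor of 46.5 was that of irradiated Wip1+/+ cells.

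Agreement between probe sets limits what single genes show. Of the 32 genes, 18 had further probe sets past the filter, 32 in all. In the unirradiated genotype comparison 23 of these had the sign of the brightest probe set and 9 the opposite sign, and in the irradiated one 19 and 13. The largest gap in log2 ratio was 2.18 in the first and 0.86 in the second. The gap of 2.18 was that of Pgk1, of which another probe set read 6617, 10770, 1723 and 9946. On the unirradiated array labelled Wip1-/- a probe set of Ndrg1, at 645, 684, 245 and 903, also went against its brightest.

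**Figure D3:**
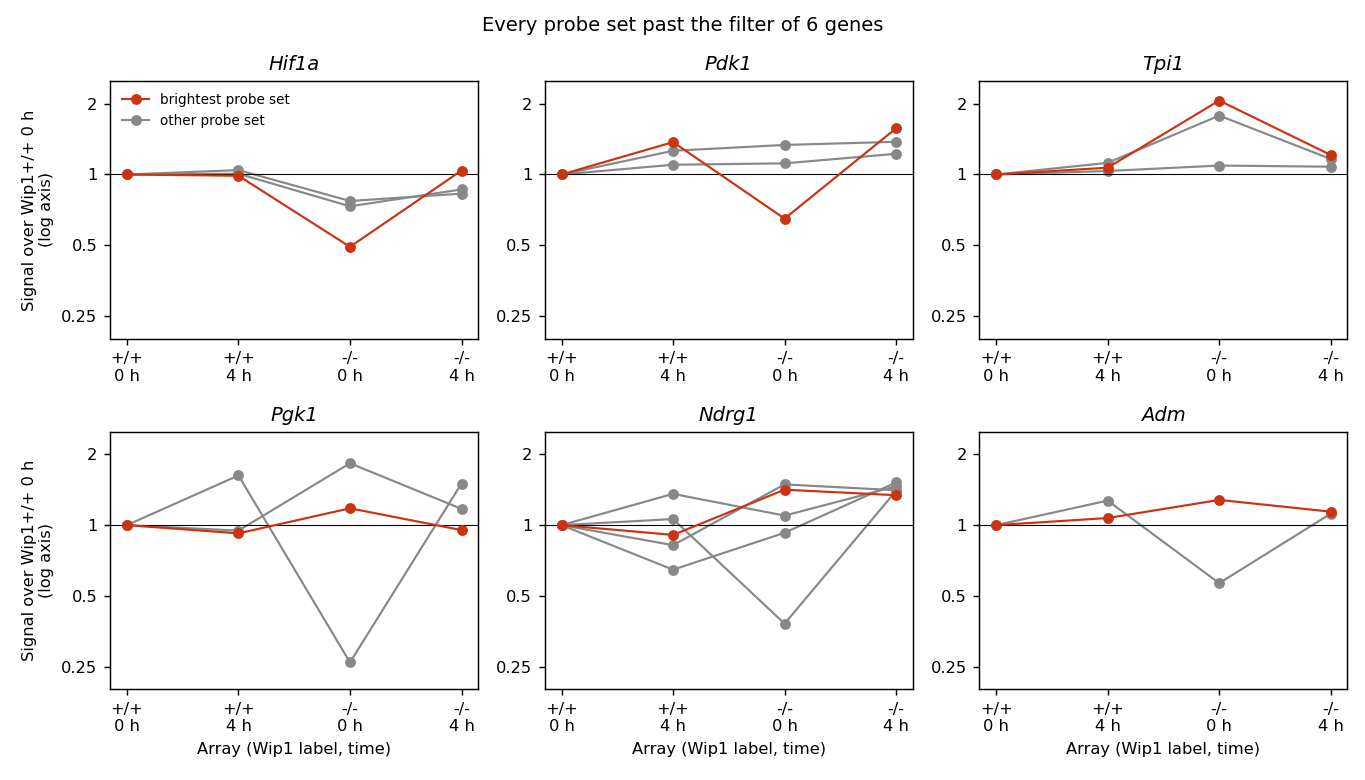
Signal over that of the unirradiated Wip1+/+ array (log axis) for every probe set past the filter of 6 genes, on the 4 arrays (x axis); red is the brightest probe set and grey the others. Lines part on the unirradiated Wip1-/- array: for Hif1a the brightest reads 3836 against 7796 while the others differ by less, and for Pgk1 one probe set reads 1723 against 6617 while another is higher.

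Few genes kept a direction in both of 2 comparisons that share no array, by a limit of 1.2-fold chosen after the values were seen. After irradiation, under both genotype labels, Pdk1, Epas1 and Ankrd37 were higher (3 of 32, against 6.82% of all genes) and Pfkfb4 was lower (1 of 32, against 6.37%). In cells labelled Wip1-/-, both without and with irradiation, Ndrg1 and Slc16a3 were higher (2 of 32, against 9.22%) and Eno2 lower (1 of 32, against 8.84%). Counts of 1 to 3 in 32 genes are near these background shares. Other probe sets of Pdk1 had irradiation log2 ratios of 0.14 and 0.14, and of 0.34 and 0.04, so neither reached the limit under both labels. With the mean of both Wip1+/+ arrays as the base for irradiated cells labelled Wip1-/-, Pdk1 was at 0.41, Epas1 at 0.48 and Ankrd37 at -0.014. Between genotypes Ndrg1 had log2 ratios of 0.50 and 0.56, Slc16a3 of 0.73 and 0.30, and Eno2 of -0.52 and -0.45. These are values of the brightest probe sets. Other probe sets of Ndrg1 had 0.58 and 0.78, -1.39 and 0.40, -0.11 and 1.23, and 0.13 and 0.11, so they did not all keep that direction or reach the limit.

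**Figure D4:**
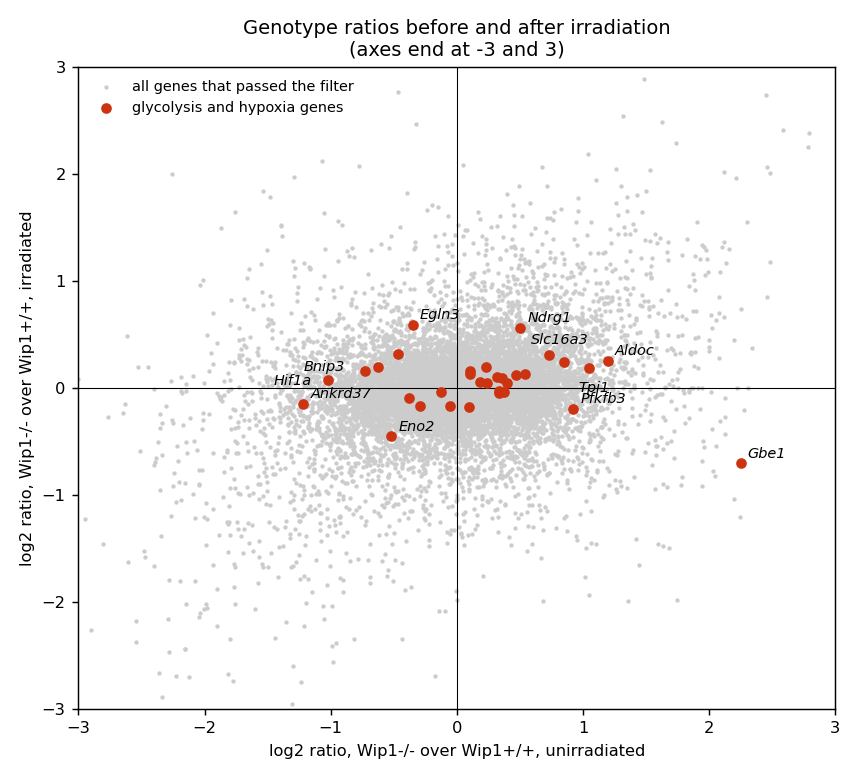
Log2 ratio of Wip1-/- over Wip1+/+ before irradiation (x axis) and after it (y axis), 1 point per gene, with the 32 glycolysis and hypoxia genes in red over all genes in grey; 20 genes lie outside the axes. The red points spread along the x axis, from -1.22 for Ankrd37 to 2.25 for Gbe1, and lie between -0.70 and 0.59 on the y axis.

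The difference between the irradiation ratios of the 2 genotypes used all 4 arrays. Its log2 value was at least 1 for Hif1a (1.10) and Ankrd37 (1.07) and -1 or lower for Gbe1 (-2.95) and Pfkfb3 (-1.12), that is 2 and 2 of 32 genes, against 6.45% and 6.4% of all genes. These 4 values are of the brightest probe sets. Other probe sets of Hif1a past the filter had 0.23 and 0.04, and the other of Pfkfb3 had the opposite sign, at 0.21. The median of the 32 genes was -0.16 (-0.041 over all genes). The value was positive in 13 of the 32 genes, against 47.2% of all genes. By the brightest probe sets it was positive for the 5 oxygen-sensing genes, from 0.09 to 1.10, and negative for 11 of 12 glycolytic enzymes. Other probe sets had the opposite sign for Hk1 (0.50), Pfkl (0.42 and 0.55), Pgk1 (1.83) and Egln1 (-0.37). This contrast includes the unirradiated array labelled Wip1-/- and was not tested.

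Other genes of glucose metabolism, from a list of 46 of which 34 passed the filter, were counted in the same way. After irradiation of Wip1+/+ cells 0 of the 34 were at least 2-fold apart (1.58% of all genes higher and 1.5% lower). Between irradiated genotypes 1 was (2.35% and 2.94% of all genes), Pygl, the liver glycogen phosphorylase, which read 151, 96.4, 183 and 238, and was 2.47-fold higher. Before irradiation (5.14% and 6.83% of all genes) 2 were at least 2-fold higher in cells labelled Wip1-/-: Slc2a3, a glucose transporter (2.05-fold), and Pdhx, a subunit of pyruvate dehydrogenase (2.05-fold). At least 2-fold lower were 3: Adpgk, an ADP-dependent glucokinase (2.64-fold), Slc16a1, a lactate transporter (2.16-fold), and Pygb, the brain glycogen phosphorylase (2.06-fold). Between irradiated genotypes the log2 ratios were 0.25 for Slc2a3, -0.23 for Pdhx, -0.22 for Adpgk and 0.26 for Slc16a1. Pygb was also lower in the irradiated genotype comparison, at 2087 and 1968 in Wip1+/+ cells and 1015 and 1129 in cells labelled Wip1-/-. In irradiated over unirradiated cells labelled Wip1-/- (5.7% of all genes higher and 4.62% lower), Slc16a1 (2.19-fold) and Adpgk (2.05-fold) were higher and Pfkfb2 (2.06-fold) lower. A second probe set of Adpgk, which read 263, 391, 219 and 290, had a log2 ratio of 0.40 there. Pfkfb2 was dim, at 104, 141, 200 and 97.0, and its other probe sets past the filter had log2 ratios of -0.63 and 0.95 there. Tigar, a p53 target that lowers fructose 2,6-bisphosphate, read 330, 285, 419 and 359.

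Of 44 other HIF pathway genes 38 passed the filter, and they are read against the same shares of all genes. Of the 38, 0 were at least 2-fold apart after irradiation of Wip1+/+ cells. Between irradiated genotypes Angptl4, a lipase inhibitor, was 2.12-fold higher and Pgf, placental growth factor, 2.27-fold lower in cells labelled Wip1-/-. Pgf read 212, 207, 300.5 and 91.1, so that the irradiated Wip1-/- array was the low one. Before irradiation Igfbp3, a binding protein of insulin-like growth factors, was 2.01-fold higher, while its other probe set had a log2 ratio of -0.83. Between irradiated genotypes the 2 probe sets had log2 ratios of 0.24 and -0.40. Cited2, a competitor of HIF for its coactivator, was 2.26-fold lower and read 6546, 5814, 2901 and 5902, but its other probe set had a log2 ratio of -0.37. Hif3a, the third HIF alpha subunit, read 254 and 190 in Wip1+/+ cells and 31.9 and 218 in cells labelled Wip1-/-, where 31.9 is under the floor, so it was at least 5.46-fold lower before irradiation. A second probe set of Hif3a read 155, 118, 27.3 and 143. After irradiation of cells labelled Wip1-/-, Hif3a was at least 4.69-fold and Cited2 2.03-fold higher, and Pgf 3.30-fold and Pdgfb, a platelet-derived growth factor, 2.21-fold lower. The other probe set of Cited2 had a log2 ratio of -0.14 there. Pdgfb read 188, 157.5, 363 and 164.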

How the data were processed

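Each of the 4 samples is 1 array. The deposited values are intensity on a linear scale, 1 per probe set, and GCOS (no version) is named in the submitters' processing notes, while the sources used here give no background method, detection call or target for scaling. The mean after trimming 2% at each end was 500 on every array, so the values were used as deposited. Probe sets were named by the platform annotation, checked against RefSeq (GRCm38.p6). Of 45101 probe sets, 64 of them controls, 34945 with 1 symbol were used. Values were floored at 46.5, the 40th percentile, before log2, and a gene entered if its brightest probe set had a mean of at least 67.95, the median of such means. A call is a 2-fold difference, and a fold against the floor is a lower bound. The number of arrays limits the precision.

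Every gene of the set was named; of 2 wider lists those at least 2-fold apart were named, up to 3 in each direction, and Tigar was added after its values were seen. The members, lists and rules were chosen with earlier results of these data known. The calculation was tested on simulated data. R 4.3.3 with limma 3.58.1 and Python 3.11.15 with numpy 2.4.6 were used. Of the 10 alternatives, those that changed a count of genes at least 2-fold apart are described with their effects. Omitting the filter, lowering or omitting the floor, cyclic loess and quantile normalization left each of these counts as it was.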

Additional observations from a re-analysis of the deposited data

Results flagged for a closer look

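The 2 genotypes went opposite ways after irradiation in 13 of 32 glycolysis and hypoxia genes, as did 46.3% of all genes. With 1 array per group this difference was not tested. Among those at least 1.5-fold apart in 1 genotype and at least 0.1 (log2) the other way in the other, the irradiation ratio of cells labelled Wip1-/- minus that of Wip1+/+ was -0.94 for Aldoc, -1.12 for Pfkfb3, 0.94 for Egln3 and -2.95 for Gbe1 on the log2 scale. Each rests on the unirradiated array labelled Wip1-/- and on the brightest probe set. The second probe set of Pfkfb3 had irradiation log2 ratios of -0.13 in Wip1+/+ cells and 0.09 in cells labelled Wip1-/-, a difference of 0.21. That of Egln3 was lower after irradiation in both genotypes, at -0.85 and -0.19.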

How the results depend on the processing

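No paired analysis was possible because each group held 1 array. The median log2 ratio of the glycolysis and hypoxia genes kept its sign under every alternative run except 1, and no gene passed 2-fold between irradiated genotypes under any of 9. With the mean of both Wip1+/+ arrays as the base for irradiated cells labelled Wip1-/-, the median turned to 0.071 and the counts at least 2-fold higher and lower were 0 and 0, while Ankrd37 turned to -0.014. With the filter at the 67th percentile, which leaves 27 genes, the counts at least 2-fold higher and lower were 0 and 0 in irradiated Wip1+/+ cells, 2 and 0 in irradiated cells labelled Wip1-/-, 1 and 1 between unirradiated genotypes, and 1 and 0 for the difference of irradiation ratios. With the median over probe sets, 2 genes were higher in irradiated cells labelled Wip1-/-. Between unirradiated genotypes 2 were then higher and 1 lower, and the difference had 1 and 1. Hif1a was then at 0.24 and -0.45 and Pdk1 at 0.14. Scaling by the brighter probe sets left 1 gene lower between unirradiated genotypes, with Hif1a at -0.995. Without probe sets ending in _x_at or _s_at, Tpi1 was at 0.13 and 2 genes were higher between unirradiated genotypes. Among unirradiated genotypes Gbe1, Aldoc and Ankrd37, all dim, kept their direction and stayed past 2-fold under the 8 alternatives that kept them. The filter at the 67th percentile removed them. Each had 1 probe set past the filter, above the floor on every array. Changing the floor or the choice of probe set, or omitting the filter, therefore could not move their ratios. All alternatives for this comparison used the unirradiated array labelled Wip1-/-. On the unirradiated array labelled Wip1-/- the signal of Ankrd37, at 52.8, was close to the floor of 46.5.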
